A study of Rattus norvegicus with 12 samples.

Results

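The genes described here encode the proteins of the mitochondrial ribosome. They were taken as the genes whose symbol in the array platform's annotation begins with Mrpl or Mrps followed by a number. This gave 59 genes with 1 probe each, of 13337 named genes on the array. Of the 59, 38 code for proteins of the large subunit and 21 for proteins of the small subunit. In the large subunit 21 have a bacterial counterpart and 17 are specific to mitochondria, and in the small subunit the numbers are 12 and 9. Mrps18a and Mrps30 carry small-subunit symbols but were counted with the large subunit, where structures of the mammalian mitochondrial ribosome place their proteins.

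Mitochondrial ribosomes translate the few messenger RNAs of mitochondrial DNA, all of which encode subunits of the oxidative phosphorylation complexes. Every one of their proteins is encoded in the nucleus, made on cytosolic ribosomes and imported, so their messenger RNAs are cytosolic. The transcription factors NRF-1, GABP (a member of the ETS family) and YY1 are known regulators of nuclear genes for mitochondrial proteins.

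RNA was measured on 12 Illumina arrays, 1 per sample, of material from the BDX rat strain. Aortic endothelial cells (EC, as labelled) were starved overnight and given medium with 2% serum for 24 h, alone (2 arrays), with 10 µg/ml of exosomes from AS cells (2 arrays) or with 10 µg/ml of exosomes from AS-Tspan8 cells (2 arrays). AS is a rat pancreatic carcinoma line, and AS-Tspan8 is derived from it and stably expresses the tetraspanin Tspan8 (also D6.1A or CO-029). Each line has 1 array of its cells and 2 of its exosomes, which are vesicles collected from serum-free medium after 36 h of starvation. The labels do not say whether arrays of a group came from separate cultures, so the p-values below measure only the spread between these arrays, which may be technical.

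Several facts of the arrays bear on all results. Summed probe signal was 10383650 to 12705558 on the EC arrays, 13714493 for AS cells, 21955880 for AS-Tspan8 cells and 2390577 to 2924133 on the 4 exosome arrays. The second AS exosome array stood apart from the other 3, with 2585 named genes detected (19.4%) against 1107 to 1517. The EC arrays did not carry most defining endothelial markers. Of 8 on the array, Egfl7, Clec14a and Ramp2 appeared on every EC array, but also on both tumour cell arrays, and Cdh5, Vwf, Nos3, Tek and Tie1 were detected on none. Each EC array detected all 7 fibroblast markers, and neither tumour cell array detected any of them. The fibroblast markers summed to 64008 to 77907 on the EC arrays and to 466.2 and 507.6 in AS and AS-Tspan8 cells. The endothelial markers summed to 1521 to 3148 on the EC arrays and to 906.1 and 1195 in the same cells. Sums of different probes are not comparable with each other. What part these cell identities have in the results was not tested.

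The promoters of 6 of the genes are shown because their values are given in the comparisons below. They are the 3 paralogues Mrps18a, Mrps18b and Mrps18c, Mrps11 of the exosome samples, and Mrpl36 and Mrpl52. The last 2 were called lower in tumour cells only after normalization. Each sequence is the 250 bases before the annotated start in RefSeq, build GRCr8, read 5′ to 3′ on the gene's strand. Capitals mark matches, on either strand, to the NRF-1 core GCGCATGC, the ETS core CCGGAAG or the YY1 core AAGATGGCG, and overlapping matches run together.
Mrps18a (chr9:22367381-22367630, minus strand): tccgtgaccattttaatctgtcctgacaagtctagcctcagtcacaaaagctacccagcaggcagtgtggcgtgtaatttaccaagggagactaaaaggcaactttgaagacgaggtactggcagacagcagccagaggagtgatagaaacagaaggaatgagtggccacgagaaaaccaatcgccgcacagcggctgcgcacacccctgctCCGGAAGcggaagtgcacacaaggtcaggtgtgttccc
Mrps18b (chr20:2842756-2843005, plus strand): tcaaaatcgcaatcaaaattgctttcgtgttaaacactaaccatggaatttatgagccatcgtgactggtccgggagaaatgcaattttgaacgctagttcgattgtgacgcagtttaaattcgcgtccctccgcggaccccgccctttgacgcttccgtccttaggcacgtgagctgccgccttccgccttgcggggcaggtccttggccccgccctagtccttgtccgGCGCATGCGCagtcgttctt
Mrps18c (chr14:9122907-9123156, minus strand): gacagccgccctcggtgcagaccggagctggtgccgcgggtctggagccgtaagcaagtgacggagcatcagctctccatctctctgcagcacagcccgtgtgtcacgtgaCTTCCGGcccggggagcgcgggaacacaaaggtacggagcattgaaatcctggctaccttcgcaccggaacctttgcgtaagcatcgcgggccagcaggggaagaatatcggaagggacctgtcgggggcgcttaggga
Mrps11 (chr1:142117014-142117263, plus strand): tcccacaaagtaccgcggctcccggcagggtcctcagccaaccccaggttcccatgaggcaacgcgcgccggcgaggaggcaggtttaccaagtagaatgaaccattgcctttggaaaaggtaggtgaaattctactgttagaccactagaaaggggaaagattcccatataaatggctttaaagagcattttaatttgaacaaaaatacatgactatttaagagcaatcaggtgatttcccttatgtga
Mrpl36 (chr1:31795122-31795371, minus strand): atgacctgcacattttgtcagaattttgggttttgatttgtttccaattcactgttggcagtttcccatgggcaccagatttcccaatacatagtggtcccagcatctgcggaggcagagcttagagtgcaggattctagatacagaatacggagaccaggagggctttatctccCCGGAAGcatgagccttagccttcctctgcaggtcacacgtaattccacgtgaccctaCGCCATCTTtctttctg
Mrpl52 (chr15:31852686-31852935, plus strand): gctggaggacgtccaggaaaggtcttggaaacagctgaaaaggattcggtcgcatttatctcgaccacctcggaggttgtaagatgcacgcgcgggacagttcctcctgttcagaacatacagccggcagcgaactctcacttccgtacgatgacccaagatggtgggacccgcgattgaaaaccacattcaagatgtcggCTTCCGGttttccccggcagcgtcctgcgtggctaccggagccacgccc

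A RefSeq promoter was found for 48 of the 59 genes. Within 250 bases before and 50 after the start, 25 of the 48 (52.1%) held at least 1 of the 3 motifs, against 12.8% of all 27457 promoters in the table. The ETS core was in 16 (33.3%, against 9.22%), the YY1 core in 9 (18.8%, against 1.93%) and the NRF-1 core in 5 (10.4%, against 2.66%). The start of a gene on the opposite strand lay within 500 bases in 14 of the 48 (29.2%), against 8.79% of all promoters. One such pair consists of 2 of the genes themselves: Mrpl46 and Mrps11 face away from each other on chromosome 1 with starts 234 bases apart. The bases printed for Mrps11 cover the whole interval between them, and hold none of the 3 motifs. Mrpl47 likewise lies 244 bases from Ndufb5, a gene for a subunit of respiratory complex I, and Mrpl49 186 bases from Fau, which encodes a cytosolic ribosomal protein. These matches describe letters in a window and are not evidence of binding.

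Nearly all of the genes were detected in every cell sample. A gene was counted as detected where its probe's detection p-value was under 0.01. On the 6 EC arrays 52 to 54 of the 59 genes were detected (88.1% to 91.5%), while of all named genes 47.9% to 49.6% were. Both tumour cell arrays detected 56 of the 59 (94.9%), with 50.7% and 51.3% of all named genes. Of the 59 genes, 52 reached detection on each of the 6 EC arrays, and 52 on each of the 8 cell arrays. Mrpl18, Mrpl30 and Mrps31 were detected on none of the 12 arrays. Mrpl1, whose product is a large-subunit protein with a bacterial counterpart, and Mrps10, of the small subunit, were detected on both tumour cell arrays and on none of the EC arrays.

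**Figure D1:**
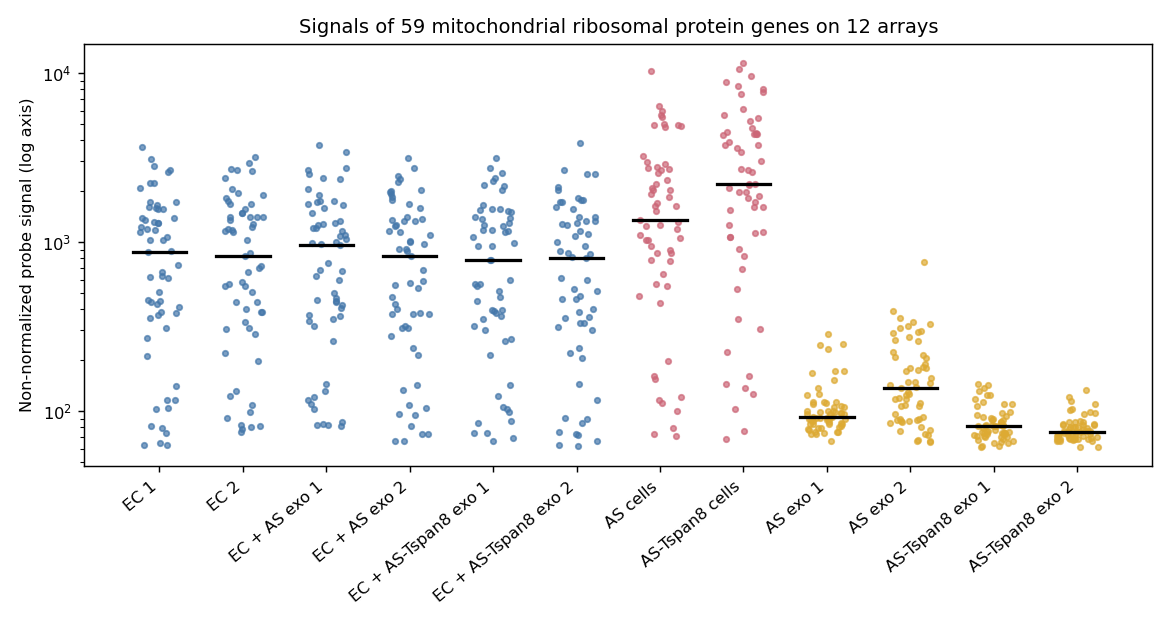
Signal of each of the 59 genes before normalization (points, log axis) on each of 12 arrays, with the median as a black line; exo stands for exosomes. Medians lie at 785.2 to 964.7 on the EC arrays, at 1357 and 2201 in AS and AS-Tspan8 cells, and at 75.33 to 137.0 on the exosome arrays.

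**Figure D2:**
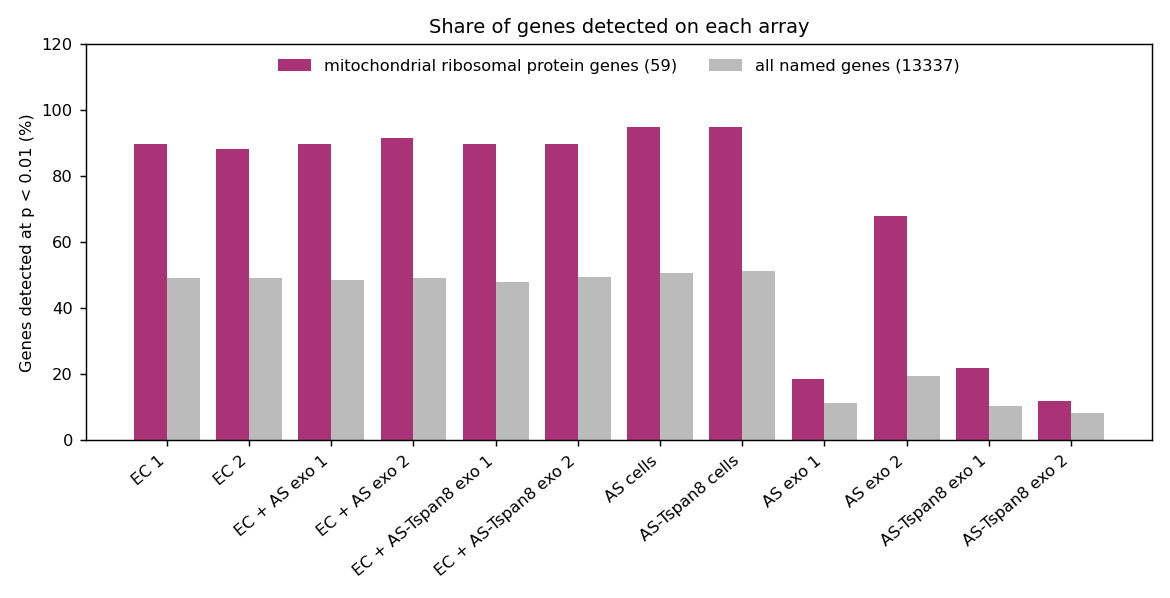
Percent of the 59 genes (purple) and of all 13337 named genes (grey) detected on each array at a detection p-value under 0.01. The purple bars stand at 88.1% or more on the 8 cell arrays and between 11.9% and 67.8% on the 4 exosome arrays.

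The first comparison asks whether EC differ in these genes after 24 h with exosomes. No gene of the mitochondrial ribosome passed the test. In each of the comparisons of AS exosomes with untreated EC, of AS-Tspan8 exosomes with untreated EC and of the 2 exosome kinds with each other, 0 of the 53 genes tested passed an adjusted p of 0.05 (limma, Benjamini-Hochberg over 9025 features). The same fits called 0% of all features. At an unadjusted p under 0.05 there were 0 of the 53 genes in each comparison, and 62, 117 and 51 of all features. The first 2 comparisons share the untreated EC arrays.

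The differences were small on the log2 scale. Over all 59 genes the median was -0.06 with AS exosomes, -0.01 with AS-Tspan8 exosomes and 0.02 between the exosome kinds, and single genes lay between -0.41 and 0.29. Taken between arrays of the same replicate number, the median with AS exosomes was -0.11 in number 1 and 0.03 in number 2. With AS-Tspan8 exosomes it was -0.11 and 0.08. Of the 59 genes, 51 were lower in number 1 and 42 were higher in number 2, so the sign of the median turned between the numbers in both comparisons with untreated EC.

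**Figure D3:**
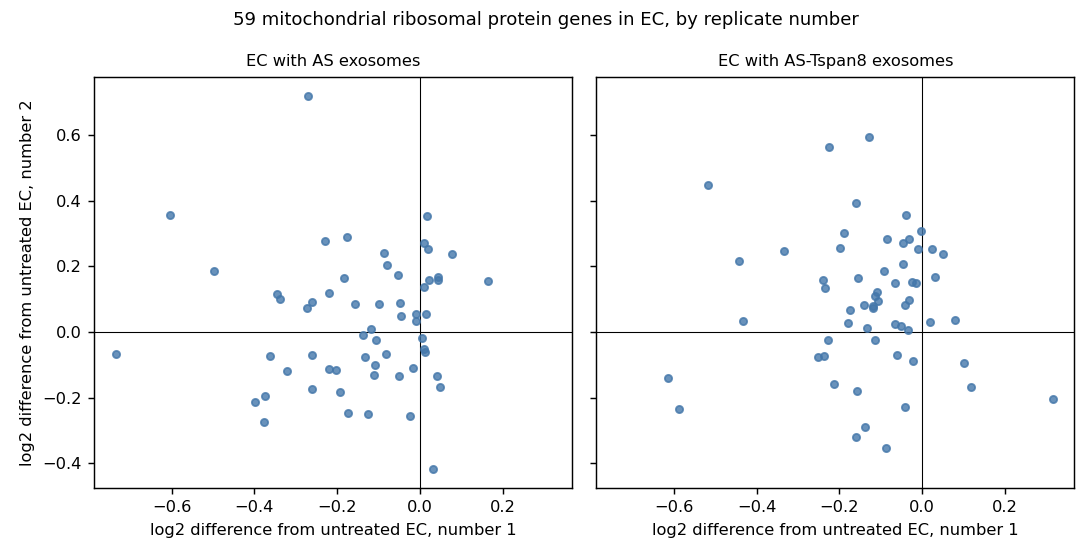
Difference from untreated EC in normalized log2 level for each of the 59 genes, between arrays numbered 1 (horizontal axis) and between arrays numbered 2 (vertical axis), for EC with AS exosomes (left) and with AS-Tspan8 exosomes (right). Most points lie left of 0 on the horizontal axis in both panels, and they spread to both sides of 0 on the vertical axis.

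The groups did not overlap for 17 of the 53 genes with AS exosomes (4 higher, 13 lower), where 23.2% of all features did not overlap. With AS-Tspan8 exosomes this held for 6 genes (0 higher, 6 lower), against 25.1% of all features. Between the exosome kinds it held for 11 genes (8 higher, 3 lower), against 17.7%. As shares of the genes these are 32.1%, 11.3% and 20.8%.

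The genes of lowest unadjusted p are given as values. Mrps34, a small-subunit gene specific to mitochondria, had signals of 509 and 568 in untreated EC, 457 and 429 with AS exosomes and 448 and 461 with AS-Tspan8 exosomes. Untreated EC were the highest on both arrays, and the difference with AS exosomes was -0.33 ± 0.16 (SE, n = 2 against 2) at a limma adjusted p of 0.9995. Mrpl47 (-0.28 ± 0.16) and Mrpl48 (-0.31 ± 0.19) were next in that direction, and Mrps14 (0.18 ± 0.19), Mrps5 (0.16 ± 0.17) and Mrpl19 (0.16 ± 0.18) in the other. With AS-Tspan8 exosomes the values were -0.24 ± 0.16 for Mrps9, -0.41 ± 0.28 for Mrps24 and -0.38 ± 0.28 for Mrpl51, and 0.23 ± 0.24 for Mrps18b, 0.15 ± 0.18 for Mrpl36 and 0.14 ± 0.18 for Mrps18a.

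Between the 2 exosome kinds Mrps18a was the gene of lowest unadjusted p. Its signals in EC were 2247 and 2623 untreated, 2367 and 1983 with AS exosomes and 2285 and 2524 with AS-Tspan8 exosomes. The normalized levels of the 2 exosome groups did not overlap, and their difference was 0.29 ± 0.18 (limma adjusted p of 1). Mrpl21 (0.25 ± 0.18) and Mrpl53 (0.23 ± 0.17) followed, and Mrps5 (-0.15 ± 0.17), Mrps15 (-0.15 ± 0.18) and Mrps27 (-0.13 ± 0.17) had the lowest p in the other direction.

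The second comparison sets the tumour lines, taken as a group of 2, against untreated EC. They are AS and its own derivative, with 1 array each, so the p-values do not extend to tumour cells in general. Standard errors come from a spread shared by the 8 cell arrays, of which 6 are EC arrays, those with exosomes included. More genes of the mitochondrial ribosome were higher than lower in the tumour cells. Of 56 tested, 27 were higher and 6 lower at an adjusted p under 0.05 (limma, Benjamini-Hochberg over 9972 features), where 28.3% of all features were higher and 24.1% lower. The median over the 59 genes was 0.49 on the log2 scale, beside 0.00 over all named genes, which include undetected ones, and 47 of 59 were above 0. Over the 56 tested genes it was 0.51, and over all features tested 0.02. Before any scaling, both tumour signals exceeded all 6 EC signals for 50 of the 59 genes, and for 0 genes did both lie below. Summed signal over all probes was also larger on both tumour arrays (13714493 and 21955880) than on any EC array (at most 12705558). The share over all features is not given for this count or for the alternatives that follow. Without scaling between arrays 44 genes were called, all higher, and without the second untreated EC array 18 were called, 16 of them higher. The large subunit had 18 higher and 5 lower of 36 tested and the small subunit 9 higher and 1 lower of 20.

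Mrpl35, a large-subunit gene with a bacterial counterpart, had signals of 2346 (AS) and 4712 (AS-Tspan8), and 517 to 630 on the 6 EC arrays. Both tumour arrays lay far above all EC arrays, and the normalized difference was 1.74 ± 0.19 (SE, n = 2 against 2, adjusted p = 0.000305 by limma). Mrps2, of the small subunit, followed with 433 and 912 against 117 and 199 in untreated EC, a difference of 1.67 ± 0.25. Mrps25, a mitochondria-specific small-subunit gene, had 2033 and 3738 against 618 and 579, and differed by 1.43 ± 0.18. In each of these genes the tumour arrays did not overlap with EC. Mrpl19 differed by 1.495 ± 0.17 and Mrpl41 by 1.46 ± 0.34, and Mrpl41 was detected on 1 of the 2 untreated EC arrays. Mrpl1 and Mrps10, not detected in untreated EC, were at least 1.306-fold and at least 1.03-fold higher (limma adjusted p 0.0234 and 0.0300). Both passed the detection filter only through the tumour arrays, the group where they are higher. Their calls, which are included in the counts of higher genes above, are therefore not independent of the filter. Both calls were lost with the median of detected probes set equal (limma adjusted p 0.212 for Mrpl1 and 0.949 for Mrps10, whose difference became -0.02), with the authors' processed table (0.0706 and 0.119) and with no background correction (0.0571 and 0.0977).

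Mrpl52, which encodes a mitochondria-specific large-subunit protein, was the lowest of the 6 called lower. Its signals were 1735 and 1480 in untreated EC, 1058 for the AS line and 1985 for AS-Tspan8. The AS-Tspan8 signal was thus the highest of the 4, and the lower call, -1.06 ± 0.20 (limma adjusted p = 0.00388), came with normalization. The same holds for Mrpl36, at 1613 and 1689 in untreated EC against 1240 and 2667, with -0.76 ± 0.18. Mrpl17 differed by -0.74 ± 0.26, Mrpl34 by -0.74 ± 0.22, Mrps17 by -0.57 ± 0.16 and Mrpl23, whose product lines the exit of the ribosomal tunnel, by -0.55 ± 0.18. Without scaling between arrays none of the 6 was called lower, and Mrpl23 (0.32), Mrpl34 (0.17), Mrpl36 (0.14) and Mrps17 (0.35) turned positive, while the first 5 of the higher genes named above lay between 2.21 and 2.61.

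**Figure D4:**
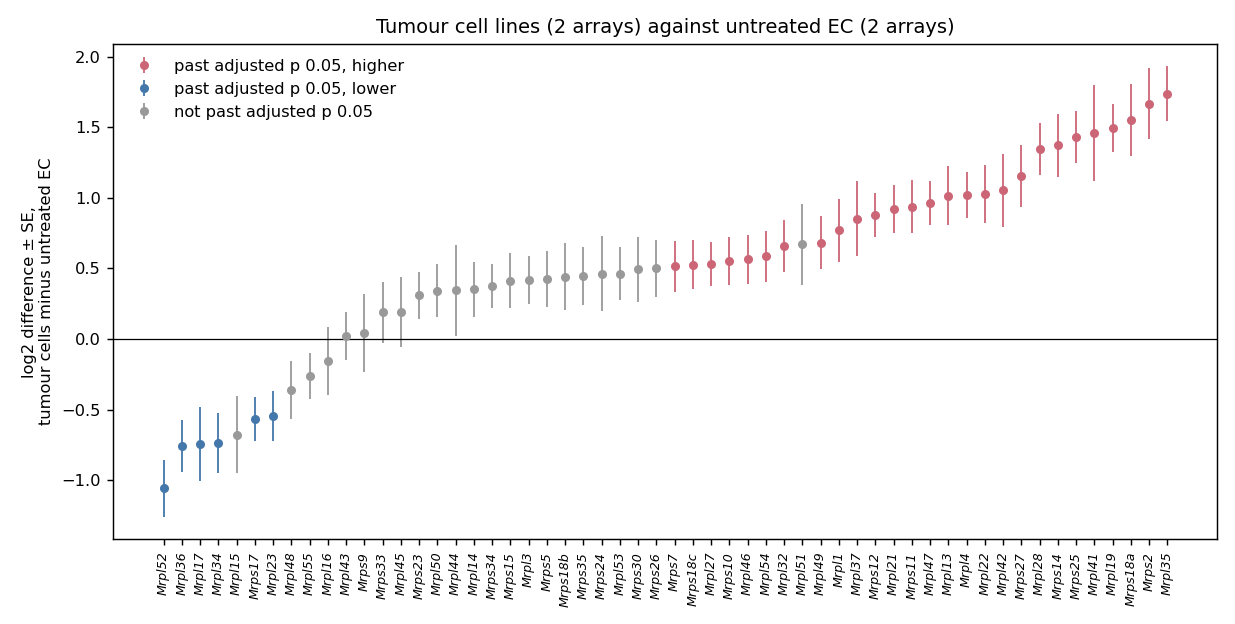
Difference in normalized log2 level between the tumour lines and untreated EC (2 arrays each) for the 56 tested genes in ascending order, with standard errors from limma. Red points passed an adjusted p of 0.05 as higher (27), blue as lower (6), and grey did not pass. The values run from -1.06 for Mrpl52 to 1.74 for Mrpl35.

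Mrps18a, Mrps18b and Mrps18c descend from 1 bacterial gene, and each has a seat of its own in the ribosome. Mrps18a had signals of 10315 and 11449 in AS and AS-Tspan8 cells and 1983 to 2623 on the EC arrays, with a difference from untreated EC of 1.55 ± 0.25 (limma adjusted p = 0.00191). Mrps18b had 5682 and 8896 against 2739 to 3881, which gave 0.44 ± 0.24 and did not pass (limma adjusted p = 0.151). Mrps18c had 2730 and 4349 against 1259 to 1398, a difference of 0.52 ± 0.17 (limma adjusted p = 0.0374). The tumour signals of all 3 exceeded every EC signal. Whether the paralogues differ from each other in this response was not tested. Mrps12, whose product sits at the decoding centre, had 6370 and 10524 against 2124 to 2804 and was higher by 0.88 ± 0.16 (limma adjusted p = 0.00296).

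Genes that work with the mitochondrial ribosome were set beside it. Nuclear genes for oxidative phosphorylation had 33 higher and 2 lower of 52 tested, with a median over the list of 0.69. Genes for cytosolic ribosomal proteins had 4 higher and 13 lower of 56 and a median of -0.13. Of mitochondrial tRNA synthetase genes, 5 of 11 were higher and 0 lower, among them Yars2 (1.58 ± 0.19) and Nars2 (1.18 ± 0.19). Ribosome assembly genes had 8 higher and 1 lower of 16, with Mterf3 at 1.53 ± 0.29 and Fastkd2 at 1.27 ± 0.27. Translation factors had 4 higher and 2 lower of 8, with the elongation factor Tufm at 1.11 ± 0.25 and the recycling factor Mrrf at -1.14 ± 0.19. Other ribosome subunits had 3 higher of 5, including Gadd45gip1 (1.16 ± 0.29), and Gabpa, a subunit of the factor GABP, was higher by 1.18 ± 0.22 in a regulator list with 2 of 4 higher. In the same list Yy1 had -0.28 ± 0.21 and did not pass. Nrf1 and Gabpb1, which codes for the other GABP subunit, were detected on none of the arrays compared. The ETS core was in 27.3% of promoters of higher genes, 50% of lower ones and 35% of the others. A link of these factors to the calls was not tested.

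Between the 2 tumour lines there is 1 array each, so the values have no replicate check. Before scaling, AS-Tspan8 cells had the higher signal for 57 of 59 genes, all but Mrpl44 and Mrps31, on an array with the larger summed signal. After normalization with the exosome arrays the direction was the other one: the median was -0.13, with 13 genes positive and 46 negative, and over all named genes it was -0.00257. At a fold of 1.5 or more, 0 of 56 genes were higher (3.75% of all features) and 3 were lower (2.96%). These were Mrpl37 (1.77-fold, signals 5022 in AS and 5422 in AS-Tspan8), Mrps18a (1.73-fold, 10315 and 11449) and Mrps9 (1.61-fold, 2078 and 2201). Each of their signals was slightly larger in AS-Tspan8 cells, so they were lower only relative to the array. Mrps35 followed with a log2 difference of -0.58, just short of the fold limit. The highest were Mrpl23 (0.29), Mrpl36 (0.14), Mrpl51 (0.14) and Mrpl35 (0.13). Normalized instead with the 8 cell arrays, a choice made after the values were seen, 7 genes were lower at that fold (12.5%, against 7.73% of 9972 features) and 0 higher (against 8.69%), with a median of -0.17. The lowest on that scale was Mrpl44 (2.07-fold), whose signal was also slightly smaller in AS-Tspan8 cells (863 in AS and 829 in AS-Tspan8).

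The third comparison asks which of these messenger RNAs were detected in exosomes. On 3 of the 4 exosome arrays 7 to 13 of the 59 genes were detected, and on the other one 40. AS exosomes had 11 and 40 of the 59 genes detected on their 2 arrays, and AS-Tspan8 exosomes 13 and 7. Of all named genes 11.4% and 19.4%, and 10.3% and 8.3%, were detected on these arrays. By contrast 47 to 51 of 61 cytosolic ribosomal protein genes and 24 to 49 of 58 oxidative phosphorylation genes were detected there. Over the 4 exosome arrays 19 genes were detected on none, 27 on 1, 2 on 2, 4 on 3 and 7 on all 4. All 27 genes detected on a single exosome array were detected on the second AS exosome array, the one that stands apart.

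The 7 genes detected on all 4 exosome arrays were Mrpl16, Mrpl37 and Mrpl43 of the large subunit, Mrps11, Mrps18b and Mrps35 of the small subunit, and Mrps18a. Mrps18a had signals of 232 and 758 on the AS exosome arrays, 144 and 104 on the AS-Tspan8 exosome arrays, and 10315 and 11449 in the cells. Mrpl37 had 173 and 328, then 110 and 98, against 5022 and 5422 in cells. Mrps35 had 168 and 355, then 124 and 110, against 4890 and 6129 in cells. In these genes and in Mrps18b (173 and 289, then 131 and 121) the second AS exosome array was the highest of the 4.

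Mrpl16, Mrpl43 and Mrps11 went the other way between the AS exosome arrays. Mrpl16 had 245 and 173 in AS exosomes, 111 and 102 in AS-Tspan8 exosomes, and 563 and 689 in the cells. Mrpl43 had 287 and 215, then 137 and 115, against 1918 and 3392 in the cells. Mrps11 had 248 and 205, then 143 and 133, against 1842 and 2694 in the cells. The first AS exosome array was the higher for these 3 alone among the 7, while 45 of all 59 genes had the higher signal on the second. Mrpl46, the head-to-head neighbour of Mrps11, had 77 and 90, then 70 and 69, in exosomes, detected on no exosome array, against 1026 and 1606 in cells.

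**Figure D5:**
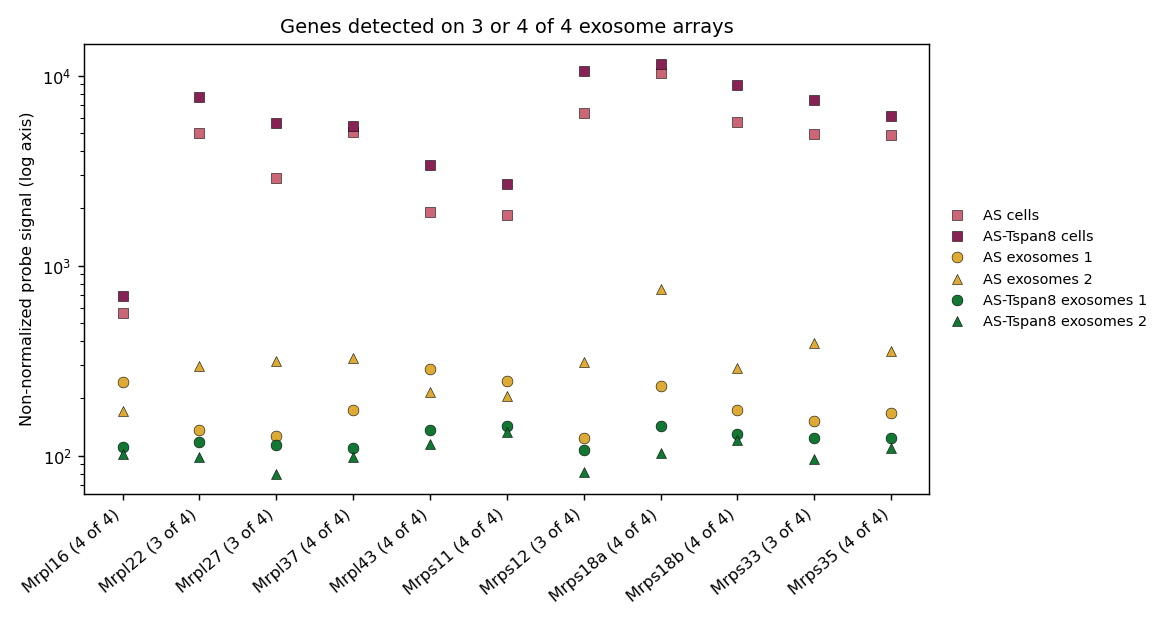
Signals before normalization (log axis) of the 11 genes detected on 3 or 4 of the 4 exosome arrays, in the 2 tumour cell samples (squares) and the 4 exosome samples (circles, array 1; triangles, array 2). Exosome signals lie below cell signals for every gene, and Mrpl16, Mrpl43 and Mrps11 are the genes with AS exosome array 1 above array 2.

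Of the genes detected on all 8 cell arrays, 12 were detected on no exosome array. Named by mean signal over all 8 cell arrays, EC included, 5 of them are Mrpl48, Mrpl46, Mrps34, Mrpl50 and Mrpl44, an RNase III-like protein of the large subunit. Mrpl48 had 1357 and 2091 in the tumour cells and 83, 89, 69 and 62 in exosomes. Mrps34 had 900 and 1721, and 81, 89, 67 and 69. At this detection limit the exosome values of these genes could not be told from negative control probes.

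Exosomes were then tested against the cells in a fit that also held the line. All 4 exosome signals lay below both cell signals for 58 of the 59 genes, Mrps31 being the exception, so every higher call rests on normalization. Summed signal over all probes was also lower, at most 2924133 on the exosome arrays and at least 13714493 in cells. The share over all features is not given for this count, so it does not set these genes apart. In that fit 2 genes were higher and 23 lower of 56 tested (limma, Benjamini-Hochberg over 9434 features), where 16.1% of all features were higher and 44.7% lower. The lower calls are 41.1% of the genes tested, near the share of all features. The median over the 56 tested genes was -1.27 on the log2 scale, and over all features tested it was -0.82. Over all 59 genes it was -1.23, beside -0.04 over all named genes, which include undetected ones, -1.57 for oxidative phosphorylation genes (1 higher and 22 lower of 53) and -0.38 for cytosolic ribosomal protein genes (4 and 15 of 56). The higher genes were Mrpl16 (1.57 ± 0.34, limma adjusted p = 0.0194) and Mrps11 (0.91 ± 0.24, limma adjusted p = 0.0324). Without scaling between arrays both were lower, by -2.79 and -4.28, and with the median of detected probes set equal Mrps11 was at -0.25 (limma adjusted p = 0.605). Under that last scaling 4 genes called lower, Mrpl1, Mrpl17, Mrpl41 and Mrpl51, were called higher, and none of the 4 was detected on an exosome array. Mrpl43 had 0.72 ± 0.32 and did not pass.

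Of the 23 lower calls, 13 were of genes detected on 0 exosome arrays, 9 on 1 and 1 on all 4. Nearly all thus set cell signals against exosome values at or near background, and their sizes have no firm order. The 13 passed the detection filter only through the cell arrays, the group where they are higher, and the 9 also needed a cell array to pass. These calls are therefore not independent of the filter. The lower calls named by size are Mrpl3 (-2.37 ± 0.49, limma adjusted p = 0.0165) and Mrpl4 (-2.28 ± 0.69), both genes of the large subunit with bacterial counterparts, Mrpl48 (-2.24 ± 0.35), Mrpl13 (-2.23 ± 0.69), Mrpl21 (-2.10 ± 0.61) and Mrpl46 (-1.98 ± 0.43). Mrpl3, Mrpl4, Mrpl13 and Mrpl21 were detected on 1 of the 4 exosome arrays. Mrpl48, not detected on any exosome array, was at least 1.151-fold lower, and for Mrpl46, also not detected there, the floor gives no fold. Mrps18b was lower by -0.98 ± 0.23 (limma adjusted p = 0.0239) and Mrps18c by -1.09 ± 0.35 (limma adjusted p = 0.04997). Mrps18c was detected on 1 of the 4 exosome arrays. Its call was lost with the authors' processed table (limma adjusted p 0.0650) and with no background correction (0.0503). With the authors' table the calls of Mrpl4 (limma adjusted p 0.0748), Mrpl13 (0.0718) and Mrpl21 (0.0580) were also lost. Mrps18a (-1.34 ± 0.53) and Mrps12 (-2.04 ± 0.73) did not pass. For the counts that follow, the shares of all features called are not given. The number called rested on single arrays: it was 0 without AS-Tspan8 cells, 3 without AS cells, 4 and 5 without the first and second AS-Tspan8 exosome array, 11 without the first AS exosome array and 45 without the second.

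Between exosomes of the 2 lines no gene passed the test. Of 56 tested, 0 passed (limma, Benjamini-Hochberg over 9434 features, 0% of all features called), and at an unadjusted p under 0.05 there was 1 of the 56 and 661 of all features. The median over the 59 genes was -0.78, with AS-Tspan8 exosomes below AS exosomes for 55, and over all named genes it was -0.01. Of all named genes 77.8% were detected on no exosome array, against 32.2% of the 59, so these 2 medians are not alike. Over the 56 tested genes the median was -0.82, and over all features tested -0.08. The cytosolic ribosomal protein genes had a median of -0.81 and the oxidative phosphorylation genes of -0.98. With the median of detected probes set equal the sign turned: the median over the 59 genes was 0.131, all named genes were at 0.779, and 1 gene was called. The median was -0.201 without the second AS exosome array and -1.32 without the first. Before scaling, both AS-Tspan8 exosome signals lay below both AS exosome signals for 56 of the 59, all but Mrpl41, Mrps25 and Mrps31. The median signal of all probes had the same order, 71.6 and 72.23 on the AS-Tspan8 and 80.53 and 75.42 on the AS exosome arrays. The share over all features is not given for this count, so it does not set these genes apart. After normalization the groups did not overlap for 23 of the 56, all lower, where 40.1% of all features did not overlap. The AS exosome arrays differed from each other by a median of 1.18 over the 59 genes, which is more than the difference between the lines.

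The gene of lowest unadjusted p was Mrpl45, whose product anchors the ribosome to the inner membrane, with signals of 101 and 148 in AS and 74 and 75 in AS-Tspan8 exosomes. It differed by -1.90 ± 0.44 (limma adjusted p = 0.687) and was detected on 1 of the 4 arrays, the second AS exosome array. The floor gives no fold for Mrpl45. Next by p were Mrps5 (-1.47 ± 0.57), detected on that array alone and also without a fold from the floor, and Mrps15, detected on none. In the other direction the genes of lowest p were Mrpl17 and Mrpl50, also detected on none, so no difference is given for these 3. The difference of exosomes from their cells was also compared between the lines as an interaction. There 0 of 56 genes passed (limma), and at an unadjusted p under 0.05 there were 0 of them and 199 of all features. The median over the 59 genes was -0.61, beside -0.02 over all named genes, which include undetected ones. Over the 56 tested genes it was -0.62, and over all features tested -0.12. Without scaling between arrays 12 genes were called and the median was -1.59 (all named genes -0.685). With the median of detected probes set equal 0 were called and the median was 0.245. The shares of all features called under these scalings are not given.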

How the data were processed

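Samples were Cy3-labelled RNA on 1-colour Illumina rat arrays, per the labels. The deposited main table gives a non-normalized intensity and a detection p-value for each probe and array, per the file headers. The authors also deposited a processed table of intensity values, used here as an alternative. Neither its normalization nor the scanner software was named in the labels or headers.

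From the non-normalized values, background was corrected by normexp with the detection p-values, an offset of 16 was added, and arrays were quantile normalized and taken to log2 (limma 3.58.1, R 4.3.3). This was done for the 6 EC arrays, for the 6 tumour cell and exosome arrays and, for tumour cells against EC, for the 8 cell arrays. Quantile normalization gives all arrays of a set 1 distribution, which raises dim probes on exosome arrays, so signals before normalization are printed. Features needed a detection p-value under 0.01 on 2 arrays, and each gene is its brightest probe. Of 22523 probes 13793 had 1 symbol, 0 several and 8730 none, and all 59 genes matched RefSeq by gene ID. Medians use all 59 genes, tested or not, unless stated, and those over all named genes include undetected ones. Fits were limma's lmFit and eBayes with Benjamini-Hochberg adjustment over all features and calls at 0.05, with a lone cell array assumed to vary like the others. Each fit took its spread from all arrays of its set, not only from the groups compared. For a group with no detection the bound is the brighter mean over the dim group's floor, which on each array is the dimmest detected signal or, where higher, the probe's own value. The number of arrays limits the precision. The tests were tried on simulated data.

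The genes and lists were chosen with earlier results of these data known. Genes were named by rule: in each comparison up to 6 highest and 6 lowest among those that passed, were detected throughout the higher group and did not overlap, otherwise the 3 of lowest unadjusted p each way; for single arrays the 4 highest and lowest; in exosomes by detection; and the Mrps18 paralogues and Mrps12. Mrpl1, Mrps10, Mrps35 between the lines and the promoters shown were picked after their values were seen. For the 2 cell lines the scale of the 6 tumour cell and exosome arrays, used first, was kept, and the 8-array scale was added later. Replicate numbers come from the labels. Same-numbered EC arrays deviated together (correlations over genes of 0.495, 0.375 and 0.555), and for exosomes the correlation was -0.412. EC medians were therefore also taken within numbers. The main EC fits, with their standard errors and p-values, held no pairing, and the replicate number entered only as an alternative. The treatment protocol also mentions VEGF, which no sample label here carries.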

Additional observations from a re-analysis of the deposited data

How the results depend on the processing

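Of 188 values recomputed under alternatives, 164 stayed on the same side of the threshold or within the spread between arrays; the cause of the other changes was not tested. These are counts and medians, and single calls did turn. For exosomes against cells 2 of 25 called genes were called in the other direction without scaling (Mrpl16 at -2.79, Mrps11 at -4.28). With detected medians set equal 4 were (Mrpl1 at 2.46, Mrpl17 at 2.51, Mrpl41 at 0.99, Mrpl51 at 1.49). Of the 25 calls, 18 were kept with the authors' table and 15 with detected medians set equal. Without scaling 23 were kept, and with no background correction 23. Of the 33 calls in tumour cells against EC, 30 were kept with the authors' table and 25 with detected medians set equal. There 27 were kept without scaling and 30 with no background correction. For the exosome comparisons the spread between arrays was 0.907 on the log2 scale, so a median could change sign and still lie within it. The 164 is therefore a lenient count for exosomes. In EC, 0 genes were called under every alternative run, the replicate number as a block included (0 in all 3 comparisons); the median between exosome kinds was -0.0696 without scaling, where all named genes were at -0.0682. For tumour cells against untreated EC the median was 1.34 without scaling (all named genes 0.167), 0.353 with the median of detected probes set equal (all named genes -0.817), and 0.4 to 0.622 with single arrays left out, the highest without AS-Tspan8 cells; leaving out single arrays gave 18 to 32 genes called, the lowest, with 16 of them higher, without the second untreated EC array. Without scaling 44 genes were called, all higher. For exosomes against cells 56 genes were called without scaling (0 higher, median -5.47, all named genes -0.63), 45 with detected medians set equal (8 higher), 16 with no filter, 2 when detection on every array was required, and 0 to 45 with single arrays left out. Between exosome kinds, equal detected medians gave 1 call and a median of 0.131 (all named genes 0.779); the replicate block, and the crossed block added after the data were seen, gave 0 calls. The interaction without scaling gave 12 calls and a median of -1.59. Between cell lines the median was 0.668 without scaling (all named genes 0.468), so its sign turned, and -0.167 on the 8-array scale. At a detection p-value under 0.05, 24 genes were detected on the first AS exosome array and 23 and 13 on the AS-Tspan8 exosome arrays. The shares of all features called under these alternatives are not given, so the counts called do not set these genes apart from the array. Signals near those of negative controls limit all exosome values.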
